A study of Mus musculus with 21 samples.

Results

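Genes that set, copy, oxidise or protect DNA methylation were followed through fully grown mouse oocytes in which the mitotic kinesin gene *Kif11* was deleted with different Cre drivers. They were *Dnmt1*, *Dnmt3a*, *Dnmt3b*, *Dnmt3l*, *Uhrf1*, *Dppa3*, *Tet3* and *Zfp57*, taken by name as a list of genes of this pathway, and all 8 members were found among the 54232 genes of the count table. Poly(A) RNA had been amplified as full-length cDNA from 21 libraries of 3 germinal vesicle stage oocytes each, collected 48 h after injection from females of 3 to 4 months.

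The control oocytes were *Kif11* wt/fl without Cre (4 libraries) and carried a wild-type and a floxed allele. The wt/fl Spo11-Cre oocytes (5 libraries) had the same alleles and a Cre that acts in early meiotic prophase. The fl/del oocytes (4 libraries) carried a floxed allele and a constitutively deleted allele, and fl/del Spo11-Cre oocytes (4 libraries) carried the same alleles together with Spo11-Cre. The fl/fl oocytes had both alleles floxed and carried either Gdf9-Cre or Zp3-Cre (2 libraries for each driver), where Cre was driven by the promoter of an oocyte growth factor gene or of a zona pellucida gene. All groups therefore carried a floxed allele, and the mice were of a C57BL/6 background. Each mouse gave 1 or 2 libraries, so that libraries of a group are not all independent animals and a p-value measures the spread between libraries. The 4 fl/fl libraries form a set apart from the 17 libraries of the Spo11-Cre background. Genotype, driver and library set cannot be told apart between these sets.

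In a growing oocyte, DNMT3A together with its catalytically inactive partner DNMT3L writes the maternal methylation pattern, including that of imprinted genes. DNMT1, directed by UHRF1, copies methylation after replication, and mouse oocytes are known to store a DNMT1 form made from an oocyte start upstream of the somatic one. DPPA3 (also called STELLA) keeps UHRF1 out of the nucleus in oocytes and shields the maternal genome in the zygote, where maternal TET3 oxidises methylated cytosines. ZFP57 binds methylated imprinted loci and recruits TRIM28 so that these stay methylated in the embryo.

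The total count per library lay between 7205010 (fl/del replicate 3) and 18454549, which gave each member at least 46 counts in every library. The 4 fl/fl libraries were shallow as a set, at 7801470 to 10759741. Apart from fl/del replicate 3, all libraries of the Spo11-Cre background had at least 12729969. CPM, used for levels within a gene, are counts divided by the library's total count and multiplied by 1000000. *Kif11*, the targeted gene, was highest in the wt/fl controls at a mean of 34.5 ± 8.46 CPM (SD, 4 libraries). The wt/fl oocytes with Spo11-Cre had 24.6 ± 5.04 CPM (5 libraries), the fl/del oocytes 11.9 ± 3.06 CPM (4 libraries) and those with fl/del and Spo11-Cre 1.78 ± 0.685 CPM (4 libraries). It had a mean of 5.003 CPM with Gdf9-Cre and 6.11 CPM with Zp3-Cre (n = 2 each). Single libraries of wt/fl (23.8 to 43.2 CPM) and wt/fl Spo11-Cre (17.6 to 30.5 CPM) overlapped, and *Kif11* was not called between these groups (-0.47, edgeR adjusted p = 0.237), so that it does not check these 2 labels library by library. All fl/del libraries lay below both groups, and all fl/del Spo11-Cre libraries lay below all others. The 12 oocyte markers summed to between 22443 and 31928 CPM in all libraries. The 15 cumulus and granulosa cell markers summed to between 70.3 and 124 CPM, and 2 of them, *Cyp19a1* (mean 66.1 CPM) and *Nr5a2* (mean 28.5 CPM), made up most of this. The other 13 summed to between 1.59 and 7.25 CPM in 20 libraries and to 16.8 CPM in fl/fl Gdf9-Cre replicate 1, which stood apart. That library held the highest *Inha* (58 counts, 5.39 CPM), *Star* (44 counts, 4.09 CPM), *Gja1* (22 counts, 2.04 CPM), *Amhr2* (14 counts, 1.30 CPM) and *Amh* (12 counts, 1.12 CPM). Its *Cyp11a1* (1.21 CPM) and *Hsd3b1* (1.12 CPM) lay above their means of 0.684 and 0.391 CPM without being the highest. *Foxl2*, *Ptx3* and *Tnfaip6* had no count in any library. Other markers went the other way in fl/fl Gdf9-Cre replicate 1. It had no count of *Has2* or *Inhba*, which other libraries held, and its *Fshr* of 0.558 CPM lay under the mean of 0.786 CPM. Of the 15 cumulus and granulosa markers, 10 or 11 had enough counts to be tested, and none passed in any comparison with edgeR, DESeq2 or limma. Their median log2 difference ran from -0.59 (fl/del Spo11-Cre against wt/fl) to 0.91 (the fl/fl groups against fl/del Spo11-Cre). With edgeR, between 0 and 3 of those tested had an unadjusted p under 0.05, beside 1591 to 3358 of all genes. Of the oocyte markers, at most 4 of 12 passed in a comparison (1 higher and 3 lower in wt/fl Spo11-Cre against wt/fl). In that comparison 2.19% of all genes passed with edgeR, so that the oocyte markers were not stable there. *Ooep* was higher (0.33 on the log2 scale), and *Nobox* (-0.42), *Zar1* (-0.32) and *Zp1* (-0.30) were lower. The libraries of *Ooep* and *Nobox* did not overlap between the groups. The 8 stroma and blood markers summed to between 20.8 and 39.1 CPM, mostly *Pecam1*, and only 2 of them had enough counts to be tested. Neither passed with edgeR or limma, and with edgeR at most 1 had an unadjusted p under 0.05, while DESeq2 called 1 in the fl/fl groups against wt/fl.

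The members were found on the mouse autosomes (GRCm38 coordinates). *Dnmt1* (ENSMUSG00000004099) lies on chromosome 9 at 20907209 to 20959888, minus strand, and *Uhrf1* (ENSMUSG00000001228) on chromosome 17 at 56303321 to 56323486, plus strand. *Zfp57* (ENSMUSG00000036036) lies on the same chromosome at 37001163 to 37010635, plus strand, and *Tet3* (ENSMUSG00000034832) on chromosome 6 at 83362373 to 83459084, minus strand. Chromosome 6 also holds *Dppa3* (ENSMUSG00000046323) at 122626410 to 122630272, plus strand. *Dnmt3a* (ENSMUSG00000020661) is on chromosome 12 at 3806007 to 3914443, *Dnmt3b* (ENSMUSG00000027478) on chromosome 2 at 153649450 to 153687730, and *Dnmt3l* (ENSMUSG00000000730) on chromosome 10 at 78041947 to 78063622, all on the plus strand.

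The transcript starts of the members differ in CG dinucleotides, the letters that DNMT enzymes methylate. In RefSeq windows from 250 bases before to 50 bases after an annotated start (GRCm38.p6), 7 of the 8 members had 16 windows, and no window was given for *Dppa3*. The median over the 32851 windows of all genes was 7 CG. The most upstream start of *Dnmt1* had 2 CG, a number reached or passed by 85.9% of all windows, and its most downstream start had 33, reached by 8.56%. *Dnmt3a* had 46 and 47 CG at its first and second start, reached by 1.65% and 1.44% of windows. *Zfp57* had 6, 9 and 4 at its 3 starts and *Dnmt3l* had 6, 4 and 3. *Uhrf1* had 12 and 33 CG at its first and second start, and *Tet3* had 22. The 30 bases just before a start are shown for the members whose RNA differed between groups, to set stretches with and without CG side by side, 5′ to 3′ and with CG in capitals.

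Dnmt1, first start, chr9:20959889-20959918, minus strand: tgattggtgactgcctttggctcctctgct
Dnmt1, most downstream start, chr9:20952624-20952653, minus strand: tgggggtatctcCGggtggccctgCGgcCG
Uhrf1, first start, chr17:56303307-56303336, plus strand: ccaatcaggaatcaagagccctccccaccc
Uhrf1, second start, chr17:56304283-56304312, plus strand: CGgatgtgggCGtgggctctgtgcctccCG
Tet3, chr6:83441679-83441708, minus strand: ttggctggCGCGCGCGcCGcccccttgcac
Zfp57, first start, chr17:37001133-37001162, plus strand: aaatgttgaaccaacctttgtaagggtttc

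The stretches before the first starts of *Dnmt1*, *Uhrf1* and *Zfp57* hold no CG, and those before the *Tet3* start, the most downstream *Dnmt1* start and the second *Uhrf1* start hold 5, 3 and 3. The whole window of the first *Uhrf1* start held 12 CG, above the median of 7 over all windows, so its stretch without CG does not make it CG-poor. The counts are per gene, so the RNA from these starts was not separated, and which start these oocytes used was not tested.

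To set genes side by side, the authors' TPM were used, which are transcript abundances scaled by gene length and library. *Dppa3* RNA was the most abundant of the members by far. In wt/fl its mean was 11291 ± 545 TPM (SD, n = 4), which placed it at rank 4 of the 22281 genes with a TPM above 0. *Zfp57* followed at 815 ± 33.8 TPM (rank 173) and *Dnmt1* at 268 ± 29.7 TPM (rank 658). *Uhrf1* at 134 ± 27.6 TPM (rank 1302) and *Dnmt3l* at 130.2 ± 18.4 TPM (rank 1342) were neighbours whose libraries overlapped, from 106 to 164 and from 112 to 152 TPM. *Tet3* had 24.2 ± 2.22 TPM (rank 4484), *Dnmt3a* 12.8 ± 1.98 TPM (rank 6167) and *Dnmt3b* 4.12 ± 1.06 TPM (rank 9409). Every other pair of neighbours in this order was separated in all 4 wt/fl libraries.

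**Figure D1:**
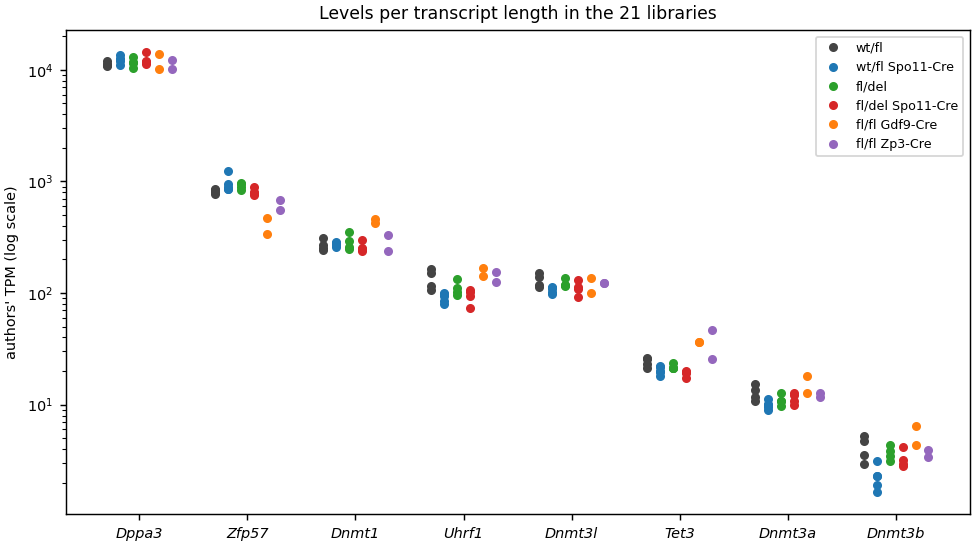
The authors' TPM (log scale) of the 8 members in each of the 21 libraries, coloured by group and ordered by the wt/fl mean. *Dppa3* lies at 10069 TPM or above in every library and *Dnmt3b* at 6.42 TPM or below, and *Dnmt1* and *Zfp57* meet in the fl/fl Gdf9-Cre libraries only.

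The inactive cofactor *Dnmt3l* was thus more abundant than the enzyme *Dnmt3a* that it serves, at 10.2 ± 0.182 times its TPM in wt/fl. The ratio lay between 7.64 and 12.3 over the 21 libraries. Both TPM values rest on a length that joins all annotated exons, 16642 bp for *Dnmt3a* and 2988 bp for *Dnmt3l*, so that the TPM of *Dnmt3a*, and likewise of *Tet3* (16695 bp), is understated where the oocyte transcript is shorter. Together the members took 0.681 ± 0.0319% of all counts in wt/fl, and between 0.589% and 0.862% in single libraries.

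Levels within a gene are given from here on as CPM. Over the 17 libraries of the Spo11-Cre background the ratio of the highest to the lowest library ran from 1.46 for *Dppa3* to 2.09 for *Uhrf1* and 3.07 for *Dnmt3b*. The coefficient of variation was 10.4% for *Dppa3*, 10.503% for *Dnmt1*, 10.95% for *Tet3*, 11.4% for *Dnmt3l*, 13.2% for *Dnmt3a*, 14.4% for *Zfp57*, 20.8% for *Uhrf1* and 29.1% for *Dnmt3b*. The last of these also had the fewest counts, from 46 to 154 per library. Overlapping and copied genes could add reads, as strand use in counting is not given in the sources used here. *Dnmt3a* shares 133 bp of exon with its antisense gene *Dnmt3aos* and *Dnmt3l* shares 67 bp with *Aire*, and the *Dppa3* pseudogene *Dppa3-ps* held 0.28% as many counts as *Dppa3*. Over all 21 libraries the ratio of the highest to the lowest library ran from 1.54 for *Dppa3* and 1.56 for *Dnmt3l* to 2.75 for *Tet3*, 3.70 for *Zfp57* and 3.72 for *Dnmt3b*.

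**Figure D2:**
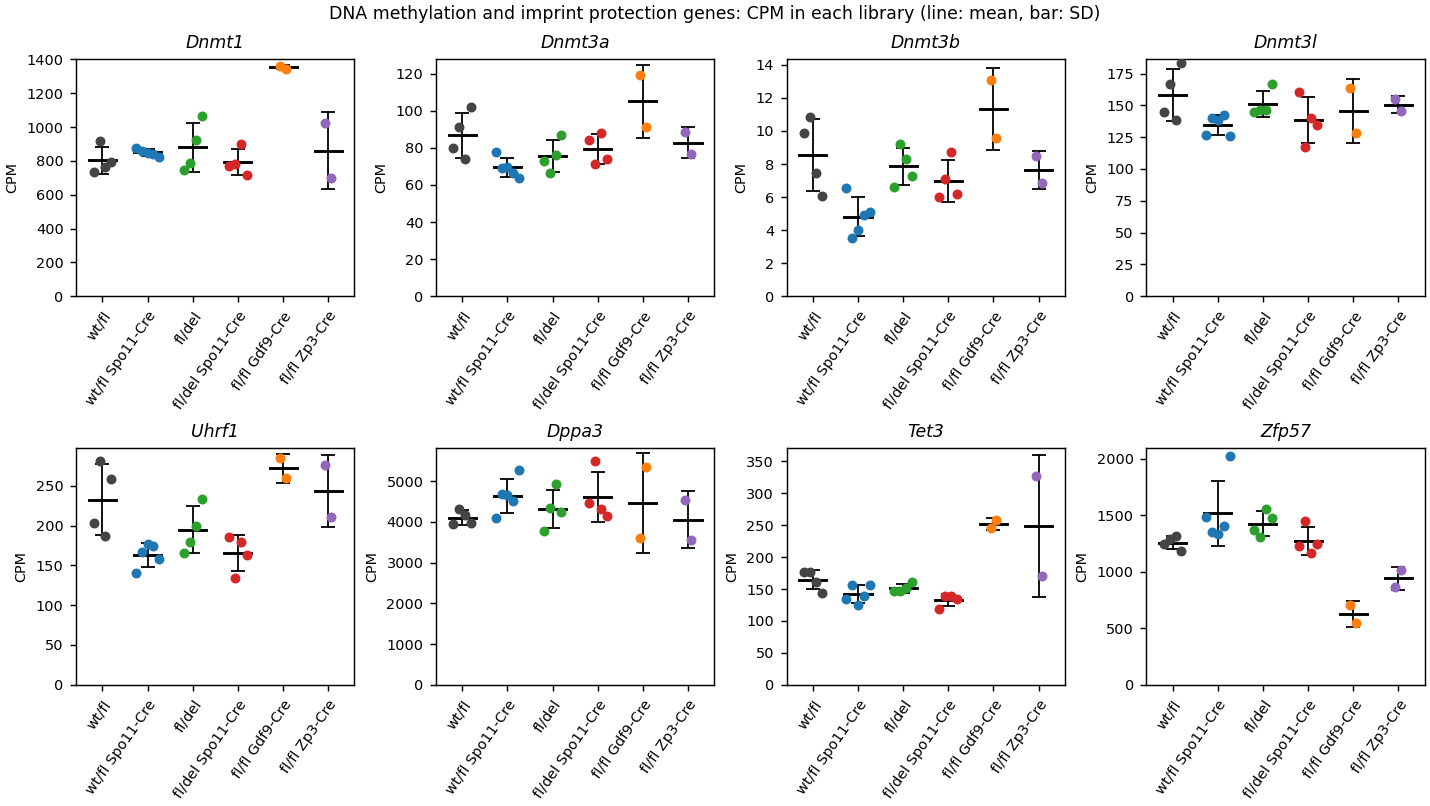
CPM of each member in each library, by group, with the mean (line) and SD (bar). *Uhrf1* lies lower in both Spo11-Cre groups than in wt/fl, and *Zfp57* lies lower and *Tet3* higher in the fl/fl groups.

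To ask whether Spo11-Cre with loss of one *Kif11* allele changed these genes, wt/fl Spo11-Cre was compared with wt/fl. *Uhrf1*, the factor that directs DNMT1 to hemimethylated DNA, was the 1 member of 8 that passed the test, against a background of 2.19% of all 22383 genes tested (491 genes, edgeR, adjusted p under 0.05). In wt/fl its 4 libraries had 204, 282, 187 and 259 CPM. In wt/fl Spo11-Cre its 5 libraries had 140.1, 166, 177, 175 and 158 CPM. Every Cre-carrying library lay below every wt/fl library, and the fitted level fell by 0.49 ± 0.10 on the log2 scale (SE, edgeR adjusted p = 0.00453). Here and below, the share of all genes whose libraries did not overlap between 2 groups was not counted. The wt/fl libraries themselves spread widely, and without wt/fl replicate 2 the difference was -0.39 (edgeR adjusted p = 0.0683). On the log2(TPM + 1) scale of limma it was -0.54 (adjusted p = 0.0935).

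*Zfp57* was higher in all 5 wt/fl Spo11-Cre libraries, which had 1482, 1354, 1335, 1404 and 2023 CPM, than in all 4 wt/fl libraries, which had 1243, 1291, 1315 and 1182 CPM. The fitted difference of 0.30 ± 0.09 just missed the threshold (edgeR adjusted p = 0.0514). It was 0.16 without wt/fl Spo11-Cre replicate 5, the library at 2023 CPM, and the adjusted p under single other settings ran from 0.00837 without a filter on low counts to 0.366 without that library. *Dnmt3b* had 9.87, 10.8, 7.43 and 6.09 CPM in wt/fl and 6.58, 3.53, 4.01, 4.90 and 5.07 CPM in wt/fl Spo11-Cre. Its groups overlapped in 1 library, and the fitted difference of -0.80 ± 0.28 did not pass (edgeR adjusted p = 0.1302). *Dnmt3a* (-0.30 ± 0.11, edgeR adjusted p = 0.142), *Dnmt3l* (-0.21 ± 0.10, 0.279) and *Tet3* (-0.19 ± 0.09, 0.320) had lower fitted levels, and *Dppa3* (0.20 ± 0.08, 0.181) and *Dnmt1* (0.10 ± 0.08, 0.602) higher ones, none of which passed. The median over the 8 members was -0.20, beside 0.03 over all genes tested, and 7 members had an unadjusted p under 0.05 with edgeR, as did 3358 of all 22383 genes. DESeq2 called 4 members, namely *Dnmt3a*, *Dnmt3b*, *Uhrf1* and *Zfp57*, and limma none. Over all genes DESeq2 also called more than edgeR and limma fewer, with the numbers given in the last section.

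The fl/del oocytes without Cre asked what the constitutive deletion did alone. None of the 8 members passed against wt/fl with edgeR, DESeq2 or limma, in a comparison where 0.0223% of genes passed (5 of 22383). With edgeR, 2 members had an unadjusted p under 0.05, as did 1906 of all 22383 genes. *Uhrf1* had 166, 180, 199.6 and 234 CPM in fl/del, and its fitted difference was -0.24 ± 0.11 (edgeR adjusted p = 0.580). *Zfp57* had 1369, 1307, 1554 and 1473 CPM, with a fitted difference of 0.20 ± 0.09 (edgeR adjusted p = 0.580). Both genes thus overlapped between the groups, in 2 of 4 fl/del libraries for *Uhrf1* and 1 of 4 for *Zfp57*. The other 6 members had fitted differences between -0.19 and 0.15.

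Against the same wt/fl libraries, the *Kif11* knockout oocytes (fl/del Spo11-Cre) also had lower *Uhrf1*, which was again 1 of 8 members to pass, where 0.197% of genes did (44 of 22383). Its 4 libraries had 186, 135, 179 and 164 CPM, and the highest of them, at 186.2 CPM, lay just under the lowest wt/fl library at 186.8 CPM. The fitted level fell by 0.49 ± 0.11 (edgeR adjusted p = 0.0230). As this comparison shares its controls with the one above, it is no second measurement of the wt/fl level. The call was lost without any of 4 libraries, which were wt/fl replicates 2 and 4 and fl/del Spo11-Cre replicates 2 and 4, with differences of -0.39, -0.43, -0.41 and -0.48. It was also lost with filterByExpr (edgeR adjusted p = 0.0719), with all 21 libraries in the fit (0.0581), with libraries of a shared name prefix, which may come from 1 mouse, summed (0.0563) and with limma (0.298), at differences of -0.51 to -0.49. *Tet3*, the oxidase, had 119, 138, 139 and 134 CPM here, against 177, 177, 161 and 145 CPM in wt/fl. These groups did not overlap either, a trait not counted over all genes, and the fitted difference of -0.32 ± 0.10 did not pass with edgeR (adjusted p = 0.170). DESeq2 called both *Uhrf1* and *Tet3*, and limma called neither. The remaining 6 members had fitted differences between -0.29 and 0.16.

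No member passed in the remaining comparisons within the Spo11-Cre background with edgeR, DESeq2 or limma. When fl/del Spo11-Cre was set against fl/del, where 0.241% of genes passed (54 of 22383), *Tet3* again did not overlap, at 119 to 139 CPM against 146 to 161 CPM (-0.21 ± 0.10, edgeR adjusted p = 0.561), and *Uhrf1* differed by -0.25 ± 0.11 (edgeR adjusted p = 0.559). These were the 2 members with an unadjusted p under 0.05 in edgeR, beside 1862 of all 22383 genes. Between both Cre-carrying groups, fl/del Spo11-Cre and wt/fl Spo11-Cre, 0.0357% of genes passed (8 of 22383), and *Zfp57* was the 1 member with an unadjusted p under 0.05 (-0.28 ± 0.09, edgeR adjusted p = 0.574). Of all 22383 genes, 1591 had such a p in this comparison. *Uhrf1* there had a fitted difference of -0.0039 ± 0.10, with means of 166 and 163 CPM. *Kif11* itself differed by -3.82 ± 0.25 in the same comparison.

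Whether libraries with and without Spo11-Cre differed alike in both *Kif11* backgrounds was tested as an interaction, their difference in fl/del less that in wt/fl. Spo11-Cre deletes a floxed *Kif11* allele in both backgrounds, so that Cre and this loss cannot be told apart here. The interaction passed for none of the 8 members and for 0.103% of genes (23 of 22383). *Zfp57* came nearest, with an interaction of -0.48 ± 0.13 (edgeR adjusted p = 0.117), as its mean was 1520 CPM with Cre against 1258 without in wt/fl, and 1274 against 1426 in fl/del. *Dnmt3a* (0.35 ± 0.16, edgeR adjusted p = 0.408) and *Dnmt1* (-0.27 ± 0.12, 0.402) also had an unadjusted p under 0.05, as did 2311 of all 22383 genes. For *Uhrf1* the interaction was 0.24 ± 0.15 (edgeR adjusted p = 0.600), so that its lower level in Cre-carrying libraries was not shown to differ between the backgrounds. Within fl/del that lower level was itself not called (edgeR adjusted p = 0.559).

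**Figure D3:**
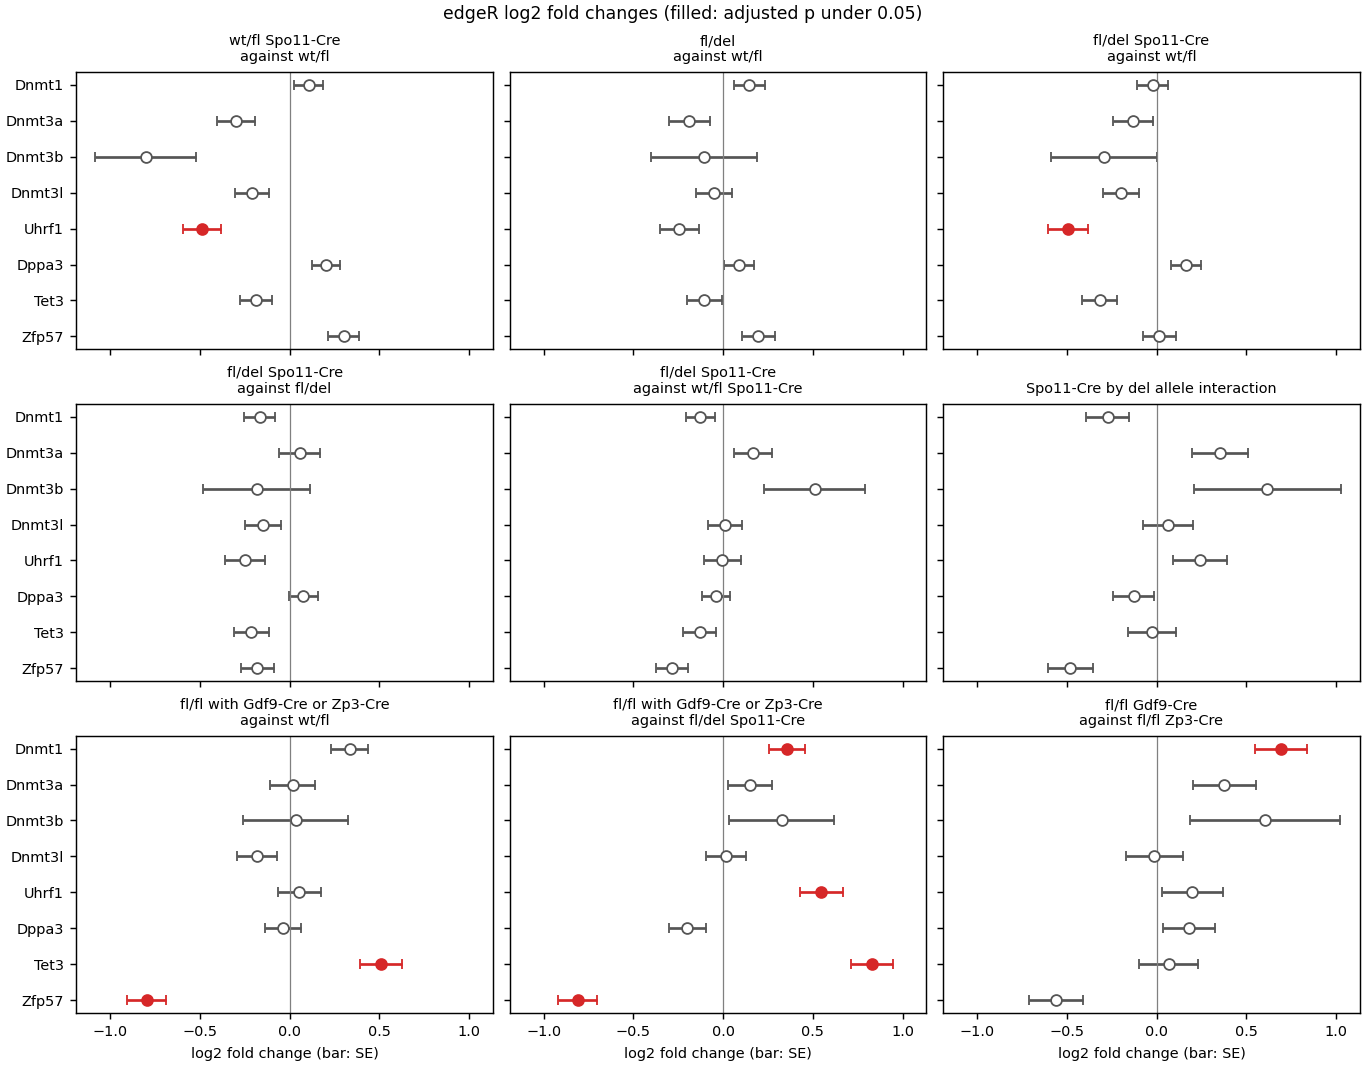
Fitted log2 fold changes of the 8 members with their SE in the 9 comparisons, filled where the adjusted p was under 0.05. *Uhrf1* is the filled point on the left of 0 in both Spo11-Cre groups against wt/fl, and *Zfp57* (negative) and *Tet3* (positive) are filled in both comparisons of the fl/fl groups.

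The fl/fl oocytes, in which Gdf9-Cre or Zp3-Cre acts during oocyte growth, were then set against the Cre-free control. Of the 8 members, 2 passed against wt/fl when both drivers were averaged, where 2.79% of genes passed (647 of 23225, 21-library fit). *Zfp57* had 706 and 547 CPM with Gdf9-Cre and 869 and 1016 CPM with Zp3-Cre. All 4 libraries lay below every other library of the series, the lowest of which had 1169 CPM. Against wt/fl, the fitted level fell by 0.80 ± 0.11 (edgeR adjusted p = 6.63e-07), and this call held in each of 18 alternatives, with differences between -0.89 and -0.70. None of these alternatives summed the fl/fl libraries. *Tet3* rose by 0.51 ± 0.12 (edgeR adjusted p = 0.00599). Its libraries had 245 and 259 CPM with Gdf9-Cre, and 327 and 170.4 CPM with Zp3-Cre. The last of these lay within the wt/fl range of 145 to 177 CPM. Without fl/fl Zp3-Cre replicate 1, the library at 327 CPM, the difference was 0.28 (edgeR adjusted p = 0.304). The *Tet3* call was also lost in a fit of the compared groups alone (0.52, edgeR adjusted p = 0.0690). With libraries of a shared name prefix summed, but the fl/fl libraries kept apart, it was lost as well (0.50, edgeR adjusted p = 0.122).

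*Dnmt1* had 1362 and 1346 CPM with Gdf9-Cre, against 734, 918.7, 767 and 794 CPM in wt/fl, but 1022 and 699 CPM with Zp3-Cre. The averaged difference of 0.33 ± 0.10 missed the threshold (edgeR adjusted p = 0.0566). The other 5 members had fitted differences between -0.18 and 0.05, and the median over the members was 0.02 beside -0.03 over all genes tested. *Dppa3* was among them, at 4261 CPM in the fl/fl libraries and 4102 CPM in wt/fl. Its fitted difference with TMM library sizes was -0.04 ± 0.10, so that its sign depended on the scaling.

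Compared with fl/del Spo11-Cre, in which *Kif11* was lost earlier, 4 of 8 members passed, where 2.9% of genes did (673 of 23225). *Zfp57* was lower by 0.81 ± 0.11 on the log2 scale (edgeR adjusted p = 4.57e-07), and its libraries did not overlap, as all 4 fl/del Spo11-Cre libraries had between 1169 and 1450.4 CPM. *Tet3* was higher by 0.83 ± 0.12 (edgeR adjusted p = 2.42e-06), with every fl/fl library above every fl/del Spo11-Cre library. *Uhrf1* had 285, 259, 276 and 211 CPM in the fl/fl libraries, all above the 135 to 186 CPM of fl/del Spo11-Cre, and was higher by 0.55 ± 0.12 (edgeR adjusted p = 0.00271). These 3 calls held in each of 18 alternatives, none of which summed the fl/fl libraries. *Dnmt1* was higher by 0.36 ± 0.10 (edgeR adjusted p = 0.0349), with overlapping libraries. The *Dnmt1* call was lost in 8 of 18 alternatives, among them leaving out any of 6 libraries (fl/del Spo11-Cre replicates 1, 2 and 4, both Gdf9-Cre libraries and Zp3-Cre replicate 1), with differences from 0.24 to 0.37. Without fl/fl Gdf9-Cre replicate 1, the library highest in the sum of the 13 less abundant cumulus and granulosa cell markers, *Zfp57* differed by -0.89 from wt/fl and by -0.90 from fl/del Spo11-Cre, *Tet3* by 0.54 and 0.85, and *Uhrf1* by 0.52 from fl/del Spo11-Cre, all past the threshold. *Uhrf1* was not called against wt/fl (0.05 ± 0.12, edgeR adjusted p = 0.924), where its fl/fl libraries overlapped the 187 to 282 CPM of wt/fl.

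The share of genes called higher or lower in these comparisons depended on the scaling. The TMM factors, which scale the library totals, were 1.034 to 1.105 in the 4 fl/fl libraries and 0.960 to 1.016 in the other 17. Among the 8525 genes with a mean count of at least 100, 208 were higher and 392 lower in the fl/fl groups against wt/fl with TMM library sizes, but 384 were higher and 193 lower with library totals. Against fl/del Spo11-Cre the same numbers were 249 and 361 with TMM, and 414 and 202 with library totals. The median shift of all these genes between the scalings was under 0.1 on the log2 scale, from -0.06 to 0.03 against wt/fl. The member differences that passed in these comparisons kept their direction under both.

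Between both late drivers, *Dnmt1* was the 1 member of 8 that passed, where 0.891% of genes did (207 of 23225). The Gdf9-Cre libraries, at 1362 and 1346 CPM, lay above the Zp3-Cre libraries, at 1022 and 699 CPM, and above the 17 libraries of the Spo11-Cre background, which reached 1064 CPM. The fitted difference was 0.69 ± 0.14 (edgeR adjusted p = 0.00369), and 0.49 without fl/fl Zp3-Cre replicate 2 (edgeR adjusted p = 0.114). With only these 4 libraries in the fit it did not pass (edgeR adjusted p = 0.662), nor with limma (adjusted p = 0.0804). Without Gdf9-Cre replicate 1 it was 0.69 (edgeR adjusted p = 0.0238). *Zfp57* was lower with Gdf9-Cre in both libraries, with a fitted difference of -0.56 ± 0.15 (edgeR adjusted p = 0.0508). *Dnmt3a* had an unadjusted p under 0.05 as well (0.38 ± 0.18, edgeR adjusted p = 0.609), as did 1659 of all 23225 genes. In TPM, *Zfp57* exceeded *Dnmt1* by a ratio of 3.07 ± 0.298 in wt/fl (n = 4), but the ratio was 0.792 and 1.0097 in the 2 Gdf9-Cre libraries, and 1.66 and 2.83 in those with Zp3-Cre. Over the Spo11-Cre background libraries (n = 17) it lay between 2.52 and 4.78.

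**Figure D4:**
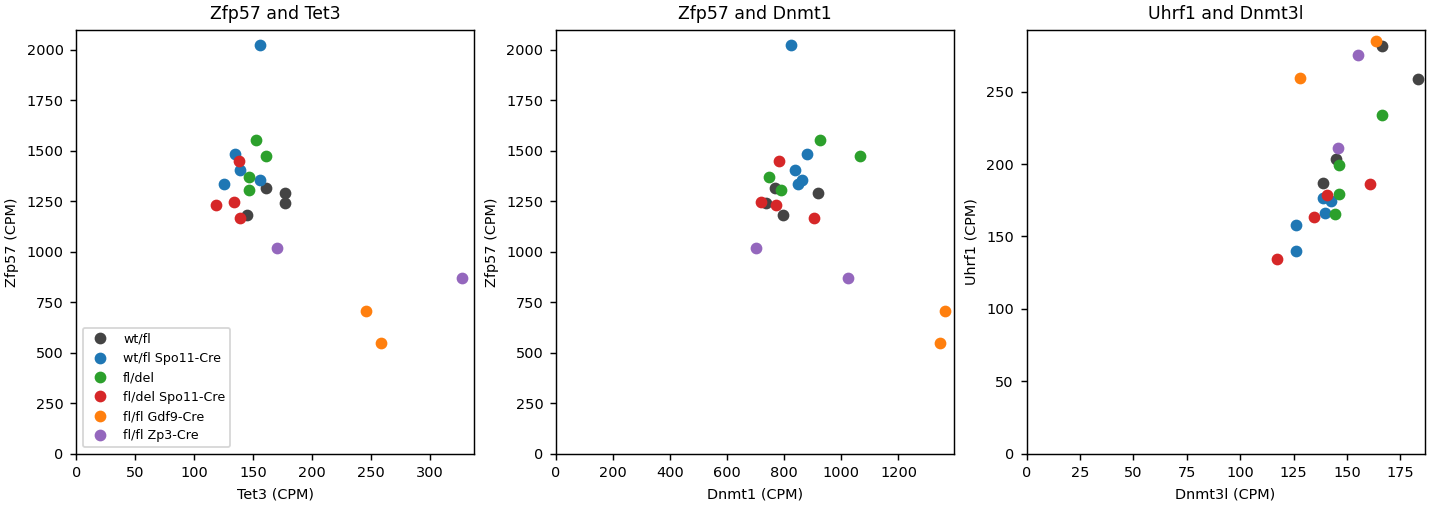
CPM of pairs of members in each library, coloured by group. The 4 fl/fl libraries lie below all others in *Zfp57*, 3 of them with *Tet3* at 245 CPM or above. *Uhrf1* and *Dnmt3l* rise together over the 17 libraries of the Spo11-Cre background (r = 0.89), and less closely over all 21 (r = 0.61).

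Across libraries the members did not move as a block. Over the 17 libraries of the Spo11-Cre background, *Dnmt3l* and *Uhrf1* were the closest pair (Pearson r = 0.89 in log2(CPM + 1) with TMM sizes), followed by *Dnmt3a* and *Dnmt3l* (0.70) and *Dnmt3a* and *Uhrf1* (0.69). *Zfp57* and *Dppa3* had r = 0.64, and each was negatively related to *Dnmt3a* (-0.56 and -0.52). *Dnmt1* was within 0.32 of 0 with every other member. Over all 21 libraries *Dnmt3l* and *Uhrf1* had r = 0.61, below *Dnmt3a* and *Uhrf1* at 0.73. *Zfp57* and *Tet3* had r = -0.72 over all 21 libraries, but 0.22 over the 17 libraries. All libraries share amplification and depth, the groups differ, and these values are descriptions without a test.

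Among the 9479 genes with a mean of at least 5 CPM, those most like a member over 21 libraries were *Ubl7* and *Selenow* for *Zfp57* (r = 0.94 and 0.92) and *Polr2g* and *Prdx1* for *Dppa3* (0.93 and 0.92). They were *Tnks*, a poly-ADP-ribosyltransferase, and *CT010467.1* for *Tet3* (0.91 and 0.92), *Grn* and *Maea* for *Dnmt3l* (0.89 and 0.88), and *Dstyk* and *Topbp1* for *Dnmt1* (0.86 and 0.84). For *Dnmt3a* they were *Add1* and *Pdcd6ip* (0.85 and 0.82), for *Uhrf1* *Pdlim2* and *Atp5a1* (0.84 and 0.83), and for *Dnmt3b* *Bmp2k* and *Baz2a* (0.76 and 0.74). Over the 17 libraries without the fl/fl set, 1 of these 16 genes, *Bmp2k*, stayed among the 2 nearest to its member, and *Klhl8* was then among the nearest to both *Dnmt3l* and *Uhrf1* (0.91 and 0.90).

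A further 45 genes of methylation biology were followed in 6 lists, of which 44 were tested. *Tdg*, the glycosylase that removes oxidised methylcytosine, had a count in 1 of 21 libraries, but the counts are of uniquely mapped reads and copies of *Tdg* were not checked, so that this is no statement on its expression. *Dnmt3c*, a rodent relative of *Dnmt3b* known from male germ cells, had a mean of 1.66 CPM, and reads from near-identical stretches of these genes cannot be assigned with certainty. At most 3 of 44 genes of these lists were called by edgeR, 5 by DESeq2 and 1 by limma in any comparison. The edgeR count of 3 arose in wt/fl Spo11-Cre against wt/fl, where 2.19% of all genes passed, and in Gdf9-Cre against Zp3-Cre, where 0.891% did. The DESeq2 count of 5 arose in the latter, with its number over all genes given in the last section.

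In wt/fl Spo11-Cre oocytes, 2 of the 44 genes were lower than in wt/fl (median over the 44 genes -0.01), beside 297 of all 22383 genes called lower. *Xrcc1*, a scaffold of base excision repair, fell from 93.7 to 66.6 CPM (-0.47 ± 0.13, edgeR adjusted p = 0.0324), with overlapping libraries. *Cdca7l* fell from 27.4 to 17.8 CPM (-0.60 ± 0.17, edgeR adjusted p = 0.0415), with every Cre-carrying library below every wt/fl library. The *Xrcc1* call (-0.54 to -0.40 when single libraries were left out) was lost without wt/fl replicate 2 or 4 or wt/fl Spo11-Cre replicate 2, 4 or 5, and the *Cdca7l* call (-0.68 to -0.45) without any of 7 of the 9 libraries, all but wt/fl replicate 1 and wt/fl Spo11-Cre replicate 1. In the fl/fl groups *Kmt2b*, a histone H3 lysine methyltransferase required in oocytes, was higher at 21.5 against 10.4 CPM in wt/fl (0.90 ± 0.26, edgeR adjusted p = 0.0381). Of all 23225 genes, 237 were called higher there. The *Kmt2b* call (0.63 to 1.11) was lost without wt/fl replicate 2, 3 or 4, Gdf9-Cre replicate 2 or Zp3-Cre replicate 1. Both comparisons share the wt/fl libraries.

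Between the Gdf9-Cre and Zp3-Cre groups, edgeR called 3 of the 44 genes, beside 0.891% of all genes, and all 3 belong to the 7 genes listed with *Zfp57* as imprint protectors. *Trim28*, the corepressor that ZFP57 recruits, was lower with Gdf9-Cre, at 41.2 and 34.9 CPM against 106 and 46.4 CPM with Zp3-Cre (-0.95 ± 0.23, edgeR adjusted p = 0.0175). Without fl/fl Zp3-Cre replicate 1, the library at 106 CPM, the difference was -0.29 (edgeR adjusted p = 0.865), and the call was also lost without Gdf9-Cre replicate 2. *Ctcf*, the insulator protein of imprinted loci, was higher with Gdf9-Cre (159 against 103 CPM, edgeR adjusted p = 0.0148), and so was *Arid4b* (22.8 against 9.27 CPM, edgeR adjusted p = 0.0194). Leaving out single libraries gave 0.45 to 0.85 for *Ctcf*, with the call lost without Gdf9-Cre replicate 2 or Zp3-Cre replicate 2, and 1.23 to 1.43 for *Arid4b*, with the call lost without Gdf9-Cre replicate 2 or either Zp3-Cre library. In a fit of these 4 libraries alone none of the 3 passed (edgeR adjusted p = 0.699 for *Trim28*, 0.774 for *Ctcf* and 0.397 for *Arid4b*), and with limma *Trim28* (adjusted p = 0.167) and *Arid4b* (0.228) did not. No gene of the lists passed with edgeR in fl/del Spo11-Cre set against fl/del or wt/fl Spo11-Cre, in the interaction, or in the fl/fl groups set against fl/del Spo11-Cre, where between 1 and 7 of the 44 had an unadjusted p under 0.05. Of all genes, 3254 of 23225 had such a p in the fl/fl comparison, and 1591 to 2311 of 22383 in the others. DESeq2 called 1 of the 44 in the fl/fl groups against fl/del Spo11-Cre, and limma none in these 4 comparisons.

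**Figure D5:**
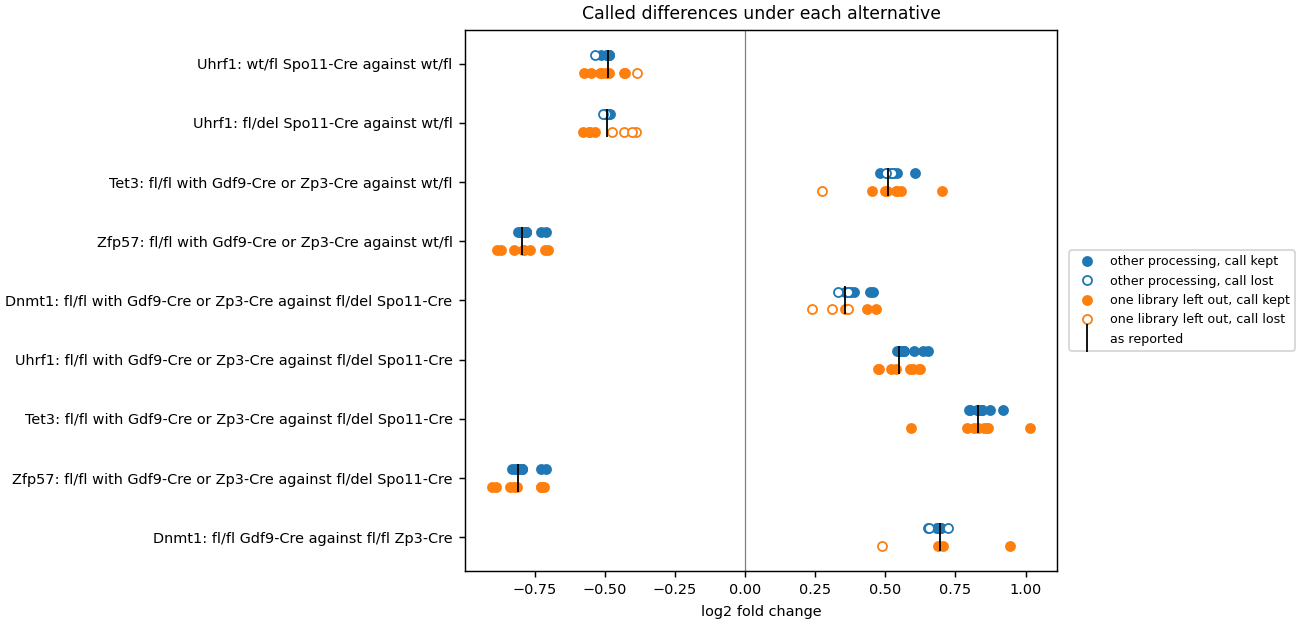
Fitted log2 fold changes of the member differences that passed, under each alternative processing (blue) and with one library left out (orange), filled where the call was kept. The vertical mark is the reported value, and no difference changes sign.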

How the data were processed

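Poly(A) RNA of 21 pools of 3 germinal vesicle oocytes was amplified with the SMART-seq v4 kit (13 cDNA and 12 library cycles, paired reads of 150 bp). As the paper's methods and the submitters' processing notes give it, reads were trimmed (fastp), aligned to GRCm38 (HISAT2 2.2.1) and counted per gene on the Ensembl release 93 annotation (featureCounts 2.0.3). The authors deposited counts over all exons, a second count table with *Kif11* counted over exon 22 alone, and TPM, which are scaled by the joined length of all exons of a gene and by library. The first table's counts exceeded the second's by a median factor of 1.95 over genes, for a reason not given in the sources used here. PCR amplification without molecular identifiers means that counts are not independent molecules.

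From the counts, CPM were computed with library totals. Differences were tested with edgeR 4.0.16 (quasi-likelihood test, TMM library sizes) on genes with a count in at least 3 libraries of the fit, with Benjamini-Hochberg adjustment over all genes and a threshold of 0.05. The 17 libraries of the Spo11-Cre background entered 1 fit and all 21 entered the fit for the fl/fl comparisons, in which both drivers were averaged on the log scale. SE are of log2 fold changes. Alternatives were DESeq2 1.42.0, limma 3.58.1 on log2(TPM + 1), RLE factors, other filters, other sets of libraries, the other count table, summing libraries whose names share a prefix, a replicate block, leaving out each library, and, chosen after seeing the data, library totals in place of TMM. In the summing by prefix, the fl/fl libraries were kept apart. The edgeR step was tested on simulated data in every comparison but the interaction, and the DESeq2 and limma steps were not. No pair of libraries of a group agreed within counting noise (lowest chi-square per degree of freedom 5.34). This value reached 13.3 in the groups of the Spo11-Cre background. It was 15.1 between the Gdf9-Cre libraries and 22.0 between the Zp3-Cre libraries, which were thus the least alike. The fl/fl tests shared 1 estimate of the spread over all 21 libraries, which may understate the spread in these 2 groups.

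Genes were named if they were members, *Kif11*, pathway genes that passed in a comparison (1 such gene is not reported here), or the 2 genes with the highest correlation to a member. *Tdg*, *Dnmt3c*, markers, overlapping genes and nearest genes over 17 libraries were named after their values were seen. The members and lists were chosen with earlier results of these data known. Promoter windows are those of RefSeq for GRCm38.p6.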

Additional observations from a re-analysis of the deposited data

Results flagged for a closer look

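Among 32 groups of members and libraries tested for a single library far from the others, 2 held one, and chance gives about 1 in 20. *Zfp57* had 2023.2 CPM in wt/fl Spo11-Cre replicate 5, while the other 4 libraries of that group had 1335 to 1482 CPM. *Dnmt3l* had 166.542 CPM in fl/del replicate 4, while the other 3 had 145 to 146 CPM.

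*Dnmt1* differed between the late Cre drivers, with fl/fl Gdf9-Cre higher than fl/fl Zp3-Cre by 0.694927 on the log2 scale in edgeR (adjusted p = 0.00369, n = 2 libraries each, both Gdf9-Cre libraries above both Zp3-Cre libraries).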

How the results depend on the processing

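No member difference that passed changed direction under any alternative. In wt/fl Spo11-Cre against wt/fl, the members called numbered 1, and it was 2 without a filter on low counts, with the other count table and with libraries of a shared name prefix summed, 4 with DESeq2 and 0 with limma, with 0 to 2 when single libraries were left out. In fl/del Spo11-Cre against wt/fl it was 1, and 0 with filterByExpr, all 21 libraries in the fit, prefix-summed libraries and limma, and 2 with DESeq2 (0 to 1 without single libraries). In the interaction it was 0, and 1 (*Zfp57*) without a filter (0 to 1 without single libraries, 1 without fl/del Spo11-Cre replicate 2). For the fl/fl groups against wt/fl it was 2, 1 with a fit of the compared groups alone or prefix-summed libraries, and 3 with DESeq2, RLE factors, library totals, no filter, filterByExpr and the other count table (1 to 3 without single libraries). Between Gdf9-Cre and Zp3-Cre it was 1, and 2 with RLE factors, library totals, no filter, the other count table and DESeq2, and 0 with the compared groups alone and with limma (0 to 2). In the fl/fl groups against fl/del Spo11-Cre it was 3 to 4. The remaining 3 comparisons had 0 throughout. The cause of these changes was not tested. An interaction fit of the compared groups alone was not run, as it uses the same 4 groups.

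Replicate numbers did not pair the libraries: the median correlation of deviations was 0.00096 over 42 same-numbered pairs (7 above 0.1) and -0.0042 over 138 others (23 above 0.1). With the replicate block, 2 members were called between Gdf9-Cre and Zp3-Cre, 3 in the fl/fl groups against wt/fl, 4 against fl/del Spo11-Cre, 1 in each Spo11-Cre group against wt/fl and 0 elsewhere. Genes called with the block were 96 against 23 in the interaction, 143 against 54, 230 against 44, 29 against 8 and 96 against 5 in the comparisons of fl/del Spo11-Cre with fl/del, wt/fl and wt/fl Spo11-Cre and of fl/del with wt/fl.

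Counts over all genes depended on the tool. DESeq2 called 931, 25, 166, 90, 14 and 95 genes and limma 79, 0, 17, 18, 1 and 0 in the 6 comparisons of the Spo11-Cre background in the order of the text, and without a filter edgeR called 742, 80, 185, 134, 39 and 138. For the fl/fl groups, DESeq2 called 1109, 1065 and 381, and a fit of the compared groups alone gave 238, 323 and 7. Of 144 alternative member levels, 141 stayed within 1 SD. With TMM sizes, the levels of *Dnmt1* and *Tet3* with Gdf9-Cre were 1296 and 241 CPM and that of *Dnmt3l* with Zp3-Cre was 141 CPM. The split of calls between higher and lower moved with library totals also in wt/fl Spo11-Cre against wt/fl (174 and 288 with TMM, 137 and 353 with totals), the interaction (14 and 8, 31 and 7), fl/del Spo11-Cre against wt/fl Spo11-Cre (1 and 5, 5 and 5) and Gdf9-Cre against Zp3-Cre (133 and 67, 116 and 90). Depth limits *Dnmt3b* most, at 46 to 154 counts per library.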
